A study of Mus musculus with 20 samples.

Results

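The genes of MHC class II antigen presentation were examined in the adipocyte translatome of mouse epididymal adipose tissue (epiAT) during high-fat diet (HFD) feeding and after weight loss (WL). Members were the rows of the gene count table whose Ensembl identifiers map to H2-Aa, H2-Ab1, H2-Eb1, H2-DMa, H2-DMb1, Cd74 and Ciita. These were 7 of 46078 genes in the table, and all 7 were among the 21464 genes that passed the filter on low counts and were tested. MHC class II molecules are pairs of an alpha and a beta chain that display peptides from endocytosed proteins to CD4 T cells. The chains assemble on the invariant chain (Cd74), whose last fragment is exchanged for peptide by H2-DM in the endosome. Transcription of the whole set depends on Ciita, a coactivator that does not bind DNA itself and is recruited by factors bound to conserved promoter elements, and interferon-gamma is its best known inducer outside professional antigen-presenting cells. In adipose tissue, macrophages, dendritic cells and B cells carry class II molecules, and adipocytes of obese animals have been described to express them as well.

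The study sequenced RNA from affinity-purified translating ribosomes (TRAP–seq) of AdipoERCre x NuTRAP mice on a C576BL6 background, as the labels spell it. In these mice an Adipoq-driven, tamoxifen-inducible Cre marks adipocyte ribosomes with GFP, and the pull-down starts from lysed whole tissue, which also contains the RNA of other cells. All 20 mice received tamoxifen at 4 to 5 weeks of age and began their diet 2 weeks later, and each library is 1 mouse. In the short arm (n = 3 per group), C mice ate chow and H mice HFD for 12 weeks and were 18 weeks old, and CC_s mice (chow throughout) and HC mice (12 weeks of HFD, then 8 weeks of chow, the WL group) were 26 weeks old. In the long arm (n = 2 per group), CC_l mice on chow and HH mice with 25 weeks of HFD were 31 weeks old, and CCC mice on chow and HHC mice with 25 weeks of HFD followed by 8 weeks of chow were 39 weeks old. The comparisons were H with C, HC with CC_s, HH with CC_l and HHC with CCC, each within 1 arm and 1 age. By the paper's methods, the chow of C and CC_l was a low-fat diet. In the WL period, the WL mice and their controls received a different chow, so CC_s and CCC mice also changed diet.

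Libraries held between 10710277 and 36738954 counts, and levels are given in CPM on TMM-adjusted library sizes, on which 3 reads were worth 0.0815 to 0.251 CPM. All 8 adipocyte markers had reads in every library, with a summed level between 10697 and 120880 CPM, and all 11 macrophage markers had reads in every library as well. Spermatid transcripts, which belong to the neighbouring testis, summed to 2890 CPM in CC_l replicate 1, 387 CPM in HC replicate 3 and 81.6 CPM in C replicate 1. Their part in the results was not tested. Without these 3 libraries, 6 members were called in H, 0 in HC and 6 in HH, and the HC log2 fold changes were 0.60 for H2-Aa (1.15 with them) and 0.73 for Cd74 (1.42 with them). In bulk libraries, fewer cells of a type and less RNA per cell cannot be told apart.

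Promoter sequences are shown because class II genes share elements that bind the factors recruiting Ciita. The letters GNAAC stand for the core of the X box, bound by the RFX complex (Rfx5, Rfxap and Rfxank), and ATTGG for the Y box, bound by NF-Y (Nfya, Nfyb and Nfyc). RefSeq promoter windows on GRCm38.p6, from 250 bases before to 50 bases after the transcript start, were present for 4 of 7 members (H2-Aa, H2-Eb1, H2-DMa and H2-DMb1). H2-Ab1, Cd74 and Ciita had no entry. GNAAC followed 28 to 36 bases downstream by ATTGG on the strand of the gene, a spacing chosen after looking at these sequences, was found in 3 of 5 member windows and in 0.734% of all 32851 promoter windows, and in 1.55% of them when both strands were searched. ATTGG alone was found on either strand in 37.4% of all windows and GNAAC alone in 84.8%. The stretches from position -130 to -11 follow, 5′ to 3′ on the strand of the gene, with the first GNAAC and ATTGG pair in capitals. They lie at chr17:34287834-34287953 (minus strand) for H2-Aa, chr17:34305737-34305856 for H2-Eb1 and chr17:34153061-34153180 for H2-DMb1, and at chr17:34092249-34092368 for H2-Oa and chr17:34238775-34238894 for H2-Ob, both chains of the H2-DM inhibitor H2-DO (all 4 on the plus strand).
H2-Aa: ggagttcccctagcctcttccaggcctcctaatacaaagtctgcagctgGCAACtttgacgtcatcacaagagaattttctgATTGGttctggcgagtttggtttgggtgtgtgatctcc
H2-Eb1: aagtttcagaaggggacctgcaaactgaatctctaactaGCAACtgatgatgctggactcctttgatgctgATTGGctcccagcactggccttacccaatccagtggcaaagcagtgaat
H2-DMb1: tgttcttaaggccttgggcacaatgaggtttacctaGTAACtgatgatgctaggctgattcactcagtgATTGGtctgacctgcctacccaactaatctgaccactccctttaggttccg
H2-Oa: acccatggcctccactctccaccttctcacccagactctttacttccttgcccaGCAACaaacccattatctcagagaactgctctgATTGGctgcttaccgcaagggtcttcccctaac
H2-Ob: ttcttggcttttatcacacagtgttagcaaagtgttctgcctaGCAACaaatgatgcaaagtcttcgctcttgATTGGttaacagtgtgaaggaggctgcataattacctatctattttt
In H2-Aa, GNAAC began at position -81 and ATTGG at -48, 33 bases apart. The same spacing was found in H2-DMb1, where they began at -94 and -61, and H2-Eb1 had 32 bases between -91 and -59. Neither of the 2 windows of H2-DMa held the pair. Of the other class II genes, the window of H2-DMb2 did not hold it either, and that of H2-Eb2 (not shown) held it at -132 and -100. These matches are descriptions of letters, and no binding was measured here.

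The chains and the loading factor lie in the class II region of chromosome 17. On mm10, H2-DMa lies at chr17:34119541-34139101, H2-DMb1 at chr17:34153072-34160230, H2-Ab1 at chr17:34257689-34269419 and H2-Eb1 at chr17:34305867-34316674, all on the plus strand. H2-Aa lies between H2-Ab1 and H2-Eb1 at chr17:34282744-34287823 on the minus strand. Cd74 lies at chr18:60803848-60812652 and Ciita at chr16:10480059-10528418. H2-Ab1, H2-Eb1 and Cd74 shared no stretch of 50 bases with another gene, and H2-Aa shared 0.514% of its stretches. H2-DMb1 shared 22.7% with its neighbour H2-DMb2, so that reads of these genes can be split between them. Of the exon bases of H2-DMa, 360 (10.4%) overlap Brd2 on the opposite strand, and of those of Ciita, 329 (3.45%) overlap Dexi on the opposite strand, and the libraries were counted with an unstated strand setting.

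Chow-fed mice already carried reads of every member. In C, H2-Ab1 had a mean of 107 CPM per kb of its principal transcript, H2-Aa 95.2, Cd74 46.5 and H2-Eb1 39.5 (mean of 3 mice). The loading factor was lower, at 13.5 CPM per kb for H2-DMb1 and 4.49 for H2-DMa, and Ciita was the lowest at 0.238. H2-DMb1, H2-DMa and Ciita held the last 3 places in this order in each of the 8 groups, both per kb of the principal transcript and per kb of all exons. The place of H2-Aa among the chains depended on the length used, since it ranked above Cd74 and H2-Eb1 in C by principal transcript and below both by all exons. The I-E beta chain H2-Eb1 was read in every mouse, while H2-Ea-ps, the disabled I-E alpha gene of the C57BL/6 haplotype, had 0 reads in 20 of 20 libraries, which allows up to 0.251 CPM in the shallowest of them (counting error only, with each read taken as independent).

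After 12 weeks of HFD, 6 of 7 members rose in adipocyte TRAP–seq of H mice compared with C mice, and Ciita did not pass the test. The rule of the study was applied to edgeR's quasi-likelihood test (nominal p below 0.01, log2 fold change of 1 or more in size), and 3.57% of all tested genes were called higher in this comparison. For 2 members, H2-Eb1 and H2-DMa, the Benjamini-Hochberg adjusted p was also under 0.05, as it was in this direction for 1.28% of all tested genes. H2-Aa, the I-A alpha chain, stood at 119.6, 127 and 75.6 CPM in C and at 415, 814 and 196 CPM in H, a log2 fold change of 2.14 ± 0.59 (SE, adjusted p = 0.0663). H2-Ab1, the I-A beta chain, stood at 139, 174 and 75.0 CPM in C and at 539, 1186 and 247 CPM in H, a log2 fold change of 2.35 ± 0.61 (adjusted p = 0.0562). Every H mouse was above every C mouse for both genes, with H replicate 2 the highest and H replicate 3 the lowest of the H mice.

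The I-E beta chain, H2-Eb1, had the smallest p-value of the members. It stood at 64.2, 77.4 and 56.0 CPM in C and at 344, 659 and 148 CPM in H, a log2 fold change of 2.54 ± 0.55 (edgeR's quasi-likelihood test, adjusted p = 0.0240). H2-DMa, the alpha chain of the loading factor, stood at 7.73, 7.54 and 7.07 CPM in C and at 32.8, 62.6 and 14.9 CPM in H, a log2 fold change of 2.30 ± 0.56 (adjusted p = 0.0430). H2-DMb1, its beta chain, rose by a log2 fold change of 2.21 ± 0.60, from 21.2, 23.0 and 12.4 CPM to 88.0, 128 and 46.0 CPM (adjusted p = 0.0639). The order of the H mice was the same in these genes as in the I-A chains.

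The invariant chain had the smallest fold change among the members called in H. Cd74 stood at 81.4, 78.0 and 37.2 CPM in C and at 179.95, 389 and 94.0 CPM in H, a log2 fold change of 1.75 ± 0.55 (adjusted p = 0.108). Ciita was read at 1.42, 2.33 and 0.537 CPM in C and at 17.5, 18.7 and 4.22 CPM in H, a log2 fold change of 3.24 ± 1.16 that did not pass (adjusted p = 0.160). The groups did not overlap in 7 of 7 members, against 13.4% of all tested genes that were higher in H without overlap. The median log2 fold change was 2.30 over the members and -0.15 over all tested genes. Without H replicate 2, 2 members were called (H2-Eb1 and H2-DMa), and without C replicate 3, 3 members were called (these and H2-Ab1).

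**Figure D1:**
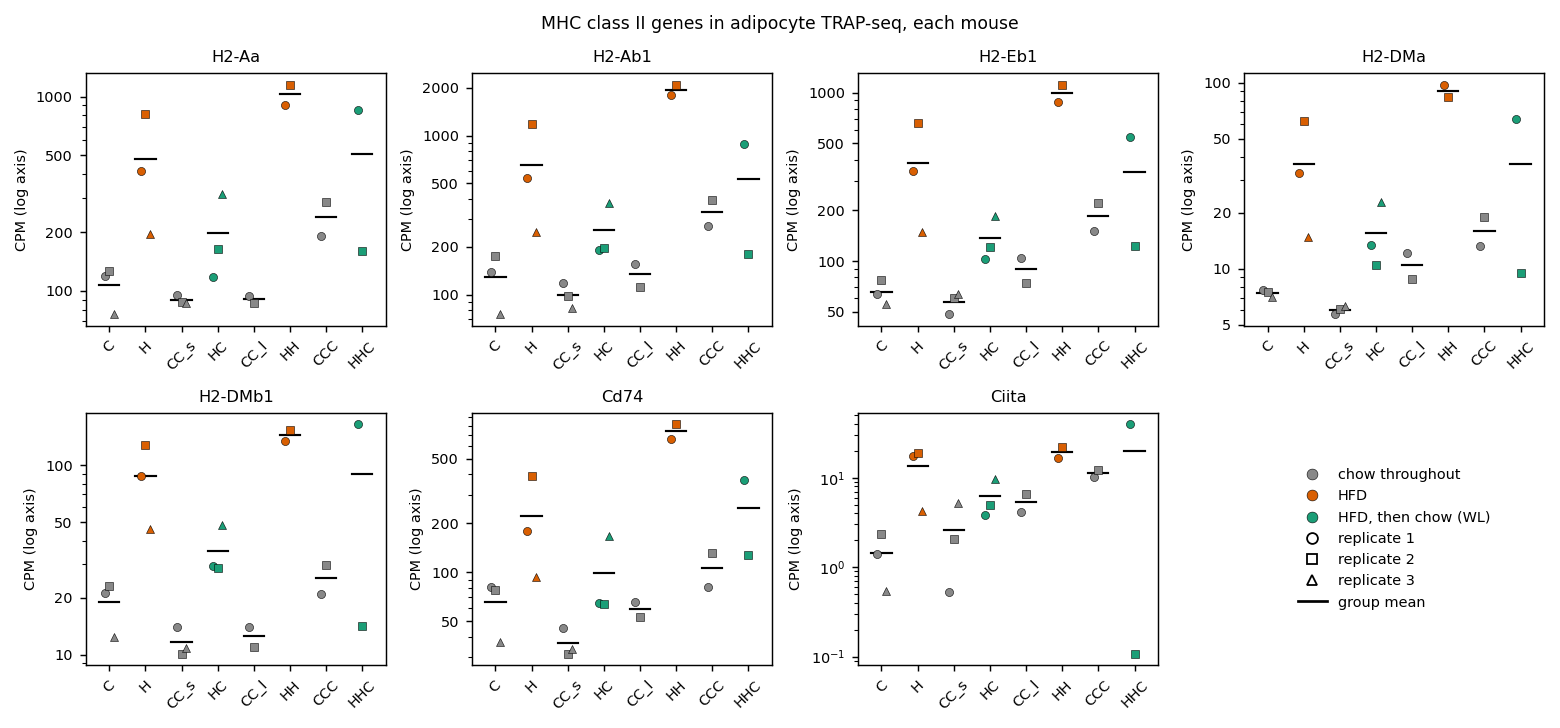
TMM-scaled CPM of the 7 class II genes in each mouse (1 panel per gene, log axes that differ between panels), with groups on the x axis, 1 symbol per mouse by replicate number and a bar at the group mean. Both HH mice are above both CC_l mice in every panel, and the HHC mice lie far apart, at 849.55 and 161 CPM for H2-Aa and at 39.9 and 0.108 CPM for Ciita.

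After 25 weeks of HFD, the same 6 members rose in HH mice compared with CC_l mice, each with an adjusted p between 0.0253 and 0.0334, whereas 4.92% of all tested genes were called higher by the nominal rule and 1.75% with an adjusted p under 0.05. H2-Ab1 had the largest fold change, with 156 and 112 CPM in CC_l and 1809 and 2089.5 CPM in HH (log2 fold change 3.86 ± 0.80, edgeR's quasi-likelihood test, adjusted p = 0.0253). H2-Aa stood at 94.4 and 86.3 CPM in CC_l and at 899.8 and 1151 CPM in HH (3.50 ± 0.76, adjusted p = 0.0286). H2-Eb1 stood at 104 and 74.3 CPM in CC_l and at 884 and 1117 CPM in HH (3.49 ± 0.70, adjusted p = 0.0253). Both HH mice had more of each chain than any other mouse of the study.

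The invariant chain and the loading factor rose by similar factors in HH. Cd74 stood at 65.6 and 53.0 CPM in CC_l and at 660.1 and 817 CPM in HH (log2 fold change 3.64 ± 0.73, edgeR's quasi-likelihood test, adjusted p = 0.0253). H2-DMa stood at 12.1 and 8.84 CPM in CC_l and at 97.7 and 83.7 CPM in HH (3.11 ± 0.71, adjusted p = 0.0334), and H2-DMb1 at 14.1 and 11.002 CPM against 134 and 154 CPM (3.52 ± 0.77, adjusted p = 0.0298). Ciita, at 4.18 and 6.61 CPM in CC_l and 16.6 and 21.9 CPM in HH, did not pass the test (1.84 ± 1.33, adjusted p = 0.484). The groups did not overlap in 7 of 7 members, but with 2 mice per group 26.3% of all tested genes were higher in HH without overlap. The median log2 fold change was 3.50 over the members and -0.23 over all tested genes, and the number of members called was 6 when any 1 of the 4 mice was left out.

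After 8 weeks back on chow, none of the 7 members passed the test in HC compared with CC_s, and 1.57% of all tested genes were called higher (edgeR's quasi-likelihood test). An adjusted p under 0.05 was found for 0 of the 21464 tested genes in this comparison. All 7 estimates were above 0. They lay between 1.15 ± 0.57 for H2-Aa and 1.60 ± 0.59 for H2-DMb1 on the log2 scale, with a median of 1.36 over the members and 0.27 over all tested genes, and nominal p-values from 0.0144 for H2-DMb1 to 0.263 for Ciita. An unadjusted p under 0.05 was found for 5 members, and for 8.69% of all tested genes in either direction. DESeq2 called 1 member (H2-DMb1).

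The chains and the invariant chain were nevertheless higher in each HC mouse than in each CC_s mouse. H2-Ab1 stood at 118, 98.0 and 82.7 CPM in CC_s and at 192, 195 and 379 CPM in HC, H2-Eb1 at 48.3, 60.1 and 64.0 CPM against 103, 122 and 185 CPM. For Cd74, the values were 45.5, 31.6 and 33.8 CPM in CC_s and 64.3, 63.8 and 168 CPM in HC. HC replicate 3 was the highest HC mouse for every member, and every HC mouse was above every CC_s mouse in 6 of 7 members (all but Ciita), as for 8.01% of all tested genes. HC replicate 3 also had the lowest adipocyte marker sum of its group (13632 CPM, against 70722 and 71635 CPM) and the highest macrophage marker sum (1574 CPM, against 581 and 604 CPM), and the part of these in the result was not tested. Without it, the log2 fold change of H2-Aa was 0.65, that of Cd74 0.79 and that of H2-DMb1 1.31, and the number of members called stayed at 0.

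In the long arm, none of the 7 members passed the test in HHC compared with CCC (edgeR's quasi-likelihood test), and 0.447% of all tested genes were called higher. Here too, 0 of the 21464 tested genes had an adjusted p under 0.05. The estimates lay between 0.68 ± 0.72 for H2-Ab1 and 1.82 ± 0.72 for H2-DMb1 on the log2 scale, with a median of 1.08 over the members and -0.06 over all tested genes. The nominal p was under 0.05 for 1 member, H2-DMb1 (0.0221), and for 10.7% of all tested genes. DESeq2 called 1 member, H2-DMb1.

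The HHC mice lay far apart, on either side of the control group for the chains. HHC replicate 1 had 849.55 CPM of H2-Aa, 884 of H2-Ab1, 549.6 of H2-Eb1 and 371 of Cd74, and HHC replicate 2 had 161, 181, 123 and 127 CPM. The CCC mice stood between them, at 192 and 286 CPM of H2-Aa, 271 and 394 CPM of H2-Ab1 and 151 and 220.4 CPM of H2-Eb1. The groups overlapped in 7 of 7 members, while 8.49% of all tested genes were higher in HHC without overlap. Without HHC replicate 1, the log2 fold changes of 6 members were below 0 (-0.58 for H2-Aa, -0.88 for H2-Ab1, -0.60 for H2-Eb1, -0.77 for H2-DMa, -0.85 for H2-DMb1 and -6.64 for Ciita) and that of Cd74 was 0.25. Without HHC replicate 2, H2-DMa (1.99) and H2-DMb1 (2.70) were called.

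Ciita set the HHC mice furthest apart. HHC replicate 1 had 39.9 CPM (476 reads), the highest level of the study, and HHC replicate 2 had 0.108 CPM, the lowest. The latter rested on 2 reads, with an exact 95% Poisson interval of 0.242 to 7.22 reads that covers counting error only. This interval takes each read as independent and is too narrow if read pairs were counted as 2 reads. In HHC replicate 2, 89.1% of the counts above 0 were even. In the same library, H2-Aa had 2984 reads and Cd74 2361. Per 1000 units of H2-Aa CPM, Ciita stood at 0.670 in HHC replicate 2 and between 5.55 and 76.6 in the other 19 libraries. Its chains were nevertheless above those of every C, CC_s and CC_l mouse.

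**Figure D2:**
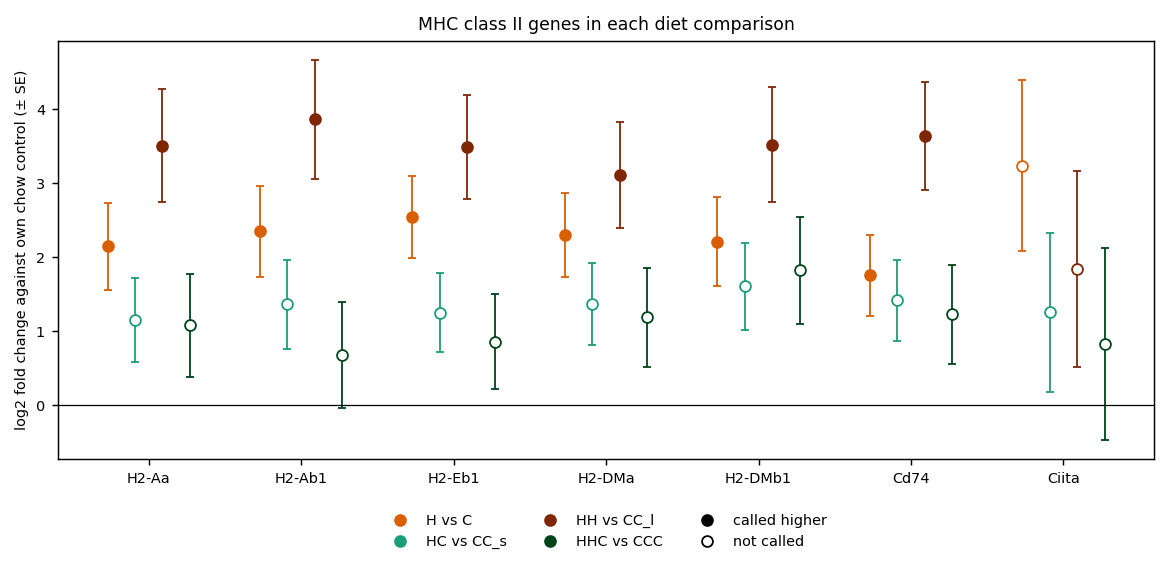
Log2 fold change of each class II gene against the chow group of the same arm and age, with bars of ± 1 SE from edgeR's quasi-likelihood fit and filled symbols for genes called higher. Filled symbols appear for 6 of 7 genes in H and in HH and for none in HC and HHC.

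Whether the effect was smaller after WL was tested as an interaction, with a threshold of 0.05 on the Benjamini-Hochberg adjusted p. None of the 7 members passed in any of the 3 interactions (edgeR's quasi-likelihood test). The HH effect exceeded the HHC effect by 3.18 ± 1.04 on the log2 scale for H2-Ab1 (adjusted p = 0.148), by 2.63 ± 0.92 for H2-Eb1 (adjusted p = 0.178), by 2.43 ± 0.99 for H2-Aa (adjusted p = 0.249) and by 2.41 ± 0.94 for Cd74 (adjusted p = 0.227). An unadjusted p under 0.05 was found for these 4 members in that interaction and for 15.5% of all tested genes. After adjustment, 0.815% of all tested genes passed. The likelihood ratio test passed 1 member (H2-Ab1), and DESeq2 passed 0. In the short arm, the H effect exceeded the HC effect by 0.34 ± 0.76 for Cd74 to 1.99 ± 1.53 for Ciita. There, 0 members were under an unadjusted p of 0.05, against 11.8% of all tested genes. The HC and HHC effects differed by -0.22 ± 0.91 for H2-DMb1 to 0.68 ± 0.93 for H2-Ab1. Again 0 members were under an unadjusted p of 0.05, against 11.8% of all tested genes, and DESeq2 passed 0 members. After adjustment, 0 of all tested genes passed in the H minus HC and in the HC minus HHC interaction.

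Group means placed HH first for 6 members and HHC first for Ciita. For H2-Aa, the order was HH (1025 ± 178 CPM, SD, n = 2), HHC (505 ± 487, n = 2), H (475 ± 313, n = 3), CCC (239 ± 67.0, n = 2), HC (199 ± 103, n = 3), C (107 ± 27.8, n = 3), CC_l (90.3 ± 5.69, n = 2) and CC_s (89.8 ± 4.99, n = 3). Only HH stood apart from its next neighbour for H2-Aa, and all other neighbours overlapped. H2-Ab1, H2-Eb1, H2-DMa and Cd74 also had HH first and apart from the group below. For H2-DMb1 and Ciita the first group overlapped the next.

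The chow groups differed among themselves. Both CCC mice, the oldest on chow at 39 weeks, had more of 6 of 7 members than any of the other 8 chow mice, the exception being H2-DMb1. For Cd74 the gap was small, with 81.7 CPM in the lower CCC mouse and up to 81.4 CPM in the other chow mice. H2-Ab1 stood at 271 and 394 CPM in CCC and at 75.0 to 174 CPM in the other chow mice. Their macrophage marker sums were higher in the same way, at 800.04 and 970 CPM against 235 to 479 CPM. The CC_l mice, of the same arm and 31 weeks old, had 156 and 112 CPM of H2-Ab1 and macrophage marker sums of 259 and 411 CPM. These values were below those of both CCC mice and within the range of the C and CC_s mice. No test of this difference was made. CCC and CC_l mice differed in age and in the kind of chow last eaten, and the part of each was not tested.

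Within a library, the chains and Cd74 varied less relative to each other than in level. Ciita varied more relative to H2-Aa than the chains and Cd74 did. Over the 20 libraries, the ratio of H2-Ab1 to H2-Aa CPM ranged from 0.960 to 2.01, that of H2-Eb1 to H2-Aa from 0.506 to 1.10 and that of Cd74 to H2-Aa from 0.360 to 0.791, whereas the level of H2-Aa itself ranged 15.2-fold. Ciita relative to H2-Aa ranged 114-fold, which rested on the 2 reads of HHC replicate 2 (0.670 per 1000 units of H2-Aa CPM). The other libraries lay between 5.55 and 76.6. The level of Ciita ranged 370-fold, with its lowest value in the same library. The H2-Ab1 to H2-Aa ratio was highest in both HH mice (2.01 and 1.82, against 1.65 and 1.30 in CC_l). H2-DMb1 to H2-DMa ranged from 1.16 to 3.09. The Pearson correlations of log2 CPM between members, as a description over 20 libraries that share depth, pull-down and group structure, ranged from 0.625 (Cd74 with Ciita) to 0.986, with a median of 0.956 over 21 pairs.

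The genes whose pattern was most like that of the chains and Cd74 are mostly known from myeloid cells. By the Pearson correlation of log2 CPM with the mean standardized level of H2-Aa, H2-Ab1, H2-Eb1 and Cd74 over 20 libraries, the 10 nearest genes were Clec4a3 (0.963), C1qc (0.961), C1qb (0.959), Fcgr3 (0.959), Ly86 (0.956), Ifi30 (0.950), Clec4a2 (0.950), Ms4a6c (0.949), Fxyd5 (0.947) and Emp3 (0.947). Clec4a3 and Clec4a2 encode C-type lectins, C1qb and C1qc chains of complement C1q, Fcgr3 an Fc receptor and Ifi30 a lysosomal thiol reductase that prepares antigens for class II. None of the 8 adipocyte markers was among them.

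Macrophage markers moved with the class II genes. Of the 11 macrophage markers, 7 rose in H, 6 in HC, 10 in HH and 0 in HHC. Without H replicate 2, 4 were called in H, and without HC replicate 3, 4 in HC. Without the 3 libraries with spermatid transcripts, 2 were called in HC. Lyz2, for lysozyme, rose by log2 fold changes of 3.06 ± 0.60 in H (edgeR's quasi-likelihood test, adjusted p = 0.0145), 2.25 ± 0.58 in HC (adjusted p = 0.536) and 3.88 ± 0.76 in HH (adjusted p = 0.0247). Cd68, a lysosomal protein of macrophages, rose by 3.88 ± 0.78 in H (adjusted p = 0.0164), 3.68 ± 0.78 in HC (adjusted p = 0.344) and 3.90 ± 0.96 in HH (adjusted p = 0.0438). The values of Cd68 depended on single mice, with 2.81 in H without H replicate 2, 2.69 in HC without HC replicate 3, and 3.10 or 5.90 in HH without CC_l replicate 1 or 2. That of Lyz2 in H was 2.02 without H replicate 2. The marker sum was 235 to 479 CPM in C and 686 to 3397 in H, 264 to 352 in CC_s and 581 to 1574 in HC, 259 to 411 in CC_l and 3553 to 4759 in HH, and 800.04 to 970 in CCC and 706 to 1623 in HHC. Csf1r, the receptor for a macrophage growth factor, was the 1 macrophage marker whose HH effect exceeded its HHC effect in the interaction (3.70 ± 0.72, adjusted p = 0.0329). The part of macrophage RNA in the class II results was not tested.

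The summed level of H2-Aa, H2-Ab1, H2-Eb1 and Cd74 ranged 21.2-fold over the 20 mice, from 244 to 5174 CPM, and its ratio to the macrophage marker sum 2.46-fold, from 0.665 to 1.64. The ratio was 0.844 to 1.04 in C and 0.897 to 0.999 in H, and 0.871 to 1.01 in CC_s and 0.665 to 0.904 in HC. It was 0.792 and 1.62 in CC_l and 1.087 and 1.197 in HH, and 0.870 and 1.06 in CCC and 0.839 and 1.64 in HHC. HFD and chow mice overlapped in this ratio in both arms, unlike in the levels. In the long arm the overlap rested on CC_l replicate 1 (1.62), the library with 2890 CPM of spermatid transcripts. Without Lyz2, the most abundant of the 11 markers, the ratio was 1.16 to 1.48 in C and 1.63 to 1.91 in H, which did not overlap. It was then 1.37 and 2.56 in CC_l against 1.96 and 2.48 in HH, which overlapped, again through CC_l replicate 1 (2.56). In the WL comparisons, the ratio without Lyz2 was 1.14 to 1.36 in CC_s and 1.03 to 1.51 in HC, which overlapped. It was 1.57 and 1.66 in CCC and 1.71 and 2.26 in HHC, which did not overlap, unlike with Lyz2. No test of these ratios was made.

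**Figure D3:**
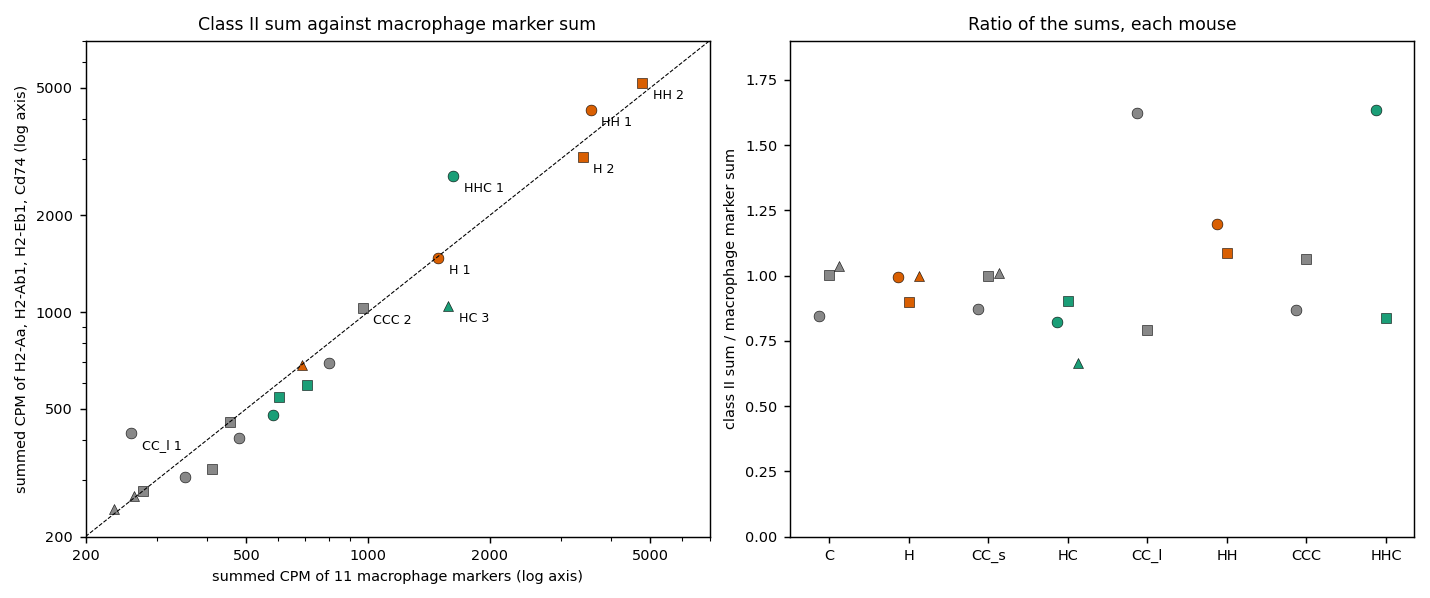
Left, summed CPM of H2-Aa, H2-Ab1, H2-Eb1 and Cd74 against the summed CPM of 11 macrophage markers in each mouse (log axes, dashed line at equal sums, grey for chow, orange for HFD, green for WL). Right, the ratio of the sums by group, with symbols for replicates 1 (circle), 2 (square) and 3 (triangle). The ratio lies between 0.665 and 1.64 in all 20 mice.

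Dendritic cells and B cells also carry class II. Of 8 dendritic cell markers, 1 rose in H (Itgax, shared with adipose tissue macrophages), 2 in HC (Itgax and Ccr7), 1 in HH (Cd209a) and 0 in HHC. Their sum was 19.9 to 53.6 CPM in C and 71.4 to 133 CPM in H. Of 7 B cell markers, 0 were called in any of the 4 comparisons, and Ms4a1 lay between 0.127 and 11.1 CPM. Of 8 T and NK cell markers, 1 rose in HC (Cd3g) and 0 elsewhere, and 5 of them had 0 reads in at least 1 library. Of 4 lipid-associated macrophage markers, 3 rose in H, 2 in HC, 2 in HH and 0 in HHC. Of 4 endothelial markers, 3 rose in H, 4 in HH and 0 in HC, and 1 fell in HHC (Tie1). Of 8 adipocyte markers, 1 rose in H (Lep) and 0 changed in the other comparisons. Of 4 adipocyte progenitor markers, 1 rose in HC (Pdgfra) and 2 in HH (Pdgfra and Dpt), of 3 mesothelial markers 1 fell in H and in HHC (Lrrn4), and of 4 spermatid markers 2 rose in HC (Ldhc and Tnp2).

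The remaining class II genes had few reads. H2-DMb2, the near-identical neighbour of H2-DMb1, stood at 0.794 to 9.39 CPM in 19 mice and at 27.5 CPM in HHC replicate 1, and it passed the test in no comparison (log2 fold changes 0.07 ± 0.74 in H, 0.69 ± 0.75 in HC, 1.60 ± 0.93 in HH and 1.26 ± 0.91 in HHC). H2-Oa, H2-Ob and H2-Eb2 were not called either, at 0 to 3.85, 0.573 to 14.4 and 0 to 4.02 CPM. Each of these 4 genes was highest in HHC replicate 1.

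Lysosomal enzymes prepare antigen for class II and degrade the invariant chain. Of 6 antigen processing genes, 4 rose in H, 2 in HC, 6 in HH and 0 in HHC. Ctss, cathepsin S, which cleaves the invariant chain, stood at 18.9 and 90.9 CPM in CC_l and at 1098 and 1067 CPM in HH, and it rose by log2 fold changes of 3.80 ± 0.85 in H (edgeR's quasi-likelihood test, adjusted p = 0.0284), 3.20 ± 0.83 in HC (adjusted p = 0.536) and 4.30 ± 1.07 in HH (adjusted p = 0.0460). Ifi30 rose by 2.26 ± 0.53 in H (adjusted p = 0.0371), 2.37 ± 0.54 in HC (adjusted p = 0.456) and 3.31 ± 0.68 in HH (adjusted p = 0.0253). Lgmn, an asparagine endopeptidase, rose by 2.18 ± 0.63 in H (adjusted p = 0.0817, 1.38 without H replicate 2) and 4.10 ± 0.84 in HH (adjusted p = 0.0253). The log2 fold change of Ctss was 2.66 in H without H replicate 2, 2.00 in HC without HC replicate 3, and 3.58 or 5.87 in HH without CC_l replicate 1 or 2. Without the 3 libraries with spermatid transcripts, 1 of the 6 was called in HC and 3 in HH. Without H replicate 2, 2 of the 6 were called in H, without HC replicate 3, 1 in HC, and without CC_l replicate 1, 2 in HH.

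Genes that govern class II at the surface and costimulation changed in few members. Cd83, which stabilizes class II at the surface, rose by a log2 fold change of 2.07 ± 0.67 in H (edgeR's quasi-likelihood test, adjusted p = 0.117) and 4.33 ± 0.90 in HH (adjusted p = 0.0253). March1 and March8, ubiquitin ligases that send class II to degradation, were not called. Of 4 costimulatory genes, Cd86 rose in HH (3.22 ± 0.90, adjusted p = 0.0719) and the others were not called. None of the 7 genes for promoter-binding factors (Rfx5, Rfxap, Rfxank, Nfya, Nfyb, Nfyc and Creb1) was called in any comparison, and their median log2 fold changes were 0.10 in H, -0.05 in HC, -0.09 in HH and 0.03 in HHC. Over all 37 genes of the pathway lists, of which 36 were tested, the calls were 6 for H, 2 for HC, 11 for HH and 4 for HHC, each of them higher.

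Of 12 genes of the interferon-gamma signal and of Ciita regulation, 1 rose in H (Spi1, a myeloid transcription factor, 2.00 ± 0.66, adjusted p = 0.130 in edgeR's quasi-likelihood test), 0 in HC, 3 in HH (Spi1, Jak2 and Gbp2) and 4 in HHC (among them Irf1, Gbp2 and Cxcl9, with adjusted p from 0.161 to 0.285). In H, 0 of the 12 were called without C replicate 1, C replicate 2, H replicate 1 or H replicate 2, and 0 with RLE scaling or with the replicate block. In HH, 0 of the 12 were called without CC_l replicate 1 or without HH replicate 1. The calls in HHC rested on 1 mouse. HHC replicate 1 had 320.3 CPM of Irf1, 396 of Gbp2 and 417 of Cxcl9, and the other 19 mice had at most 68.4, 123 and 64.0 CPM. Without this mouse 0 of the 12 were called, and the log2 fold change against CCC moved from 2.15 to -0.41 for Irf1, from 2.88 to 1.196 for Gbp2 and from 2.44 to -0.19 for Cxcl9.

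Socs1, a feedback inhibitor of the pathway, stood at 39.7 CPM in HHC replicate 1 and at 0.431 to 3.93 CPM in the other 19 mice. Irf8, which acts in myeloid and B cells, stood at 173 CPM against 6.22 to 53.7 CPM. Ifng itself had reads in 6 of 20 libraries, with 44 reads (3.69 CPM) in HHC replicate 1 and at most 0.454 CPM in any other. The T and NK cell marker sum was 156 CPM in HHC replicate 1 and 3.11 to 47.9 CPM in the others, while its macrophage marker sum (1623 CPM) lay within their range. HHC replicate 1 also had the highest class II to macrophage ratio (1.64, next 1.62 in CC_l replicate 1) and the highest Ciita, and it was the shallowest library. Without Lyz2 in the marker sum, its ratio was 2.26, below those of CC_l replicate 1 (2.56) and HH replicate 1 (2.48). In HH, whose chains were the highest, Cxcl9 stood at 64.0 and 63.4 CPM, against 29.7 and 42.7 CPM in CC_l, and was not called. Gbp2, which was called there, stood at 123 and 102 CPM in HH against 27.7 and 30.3 CPM in CC_l.

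**Figure D4:**
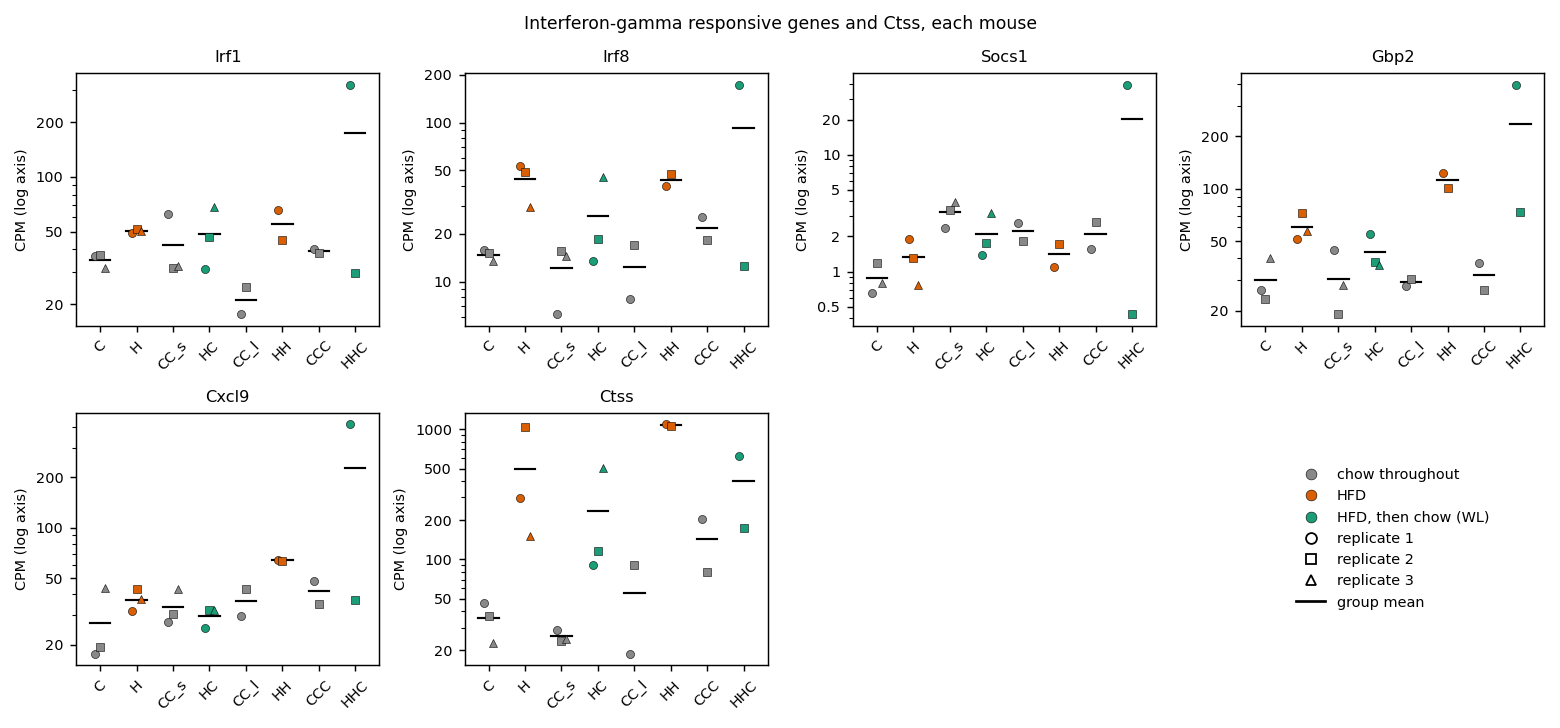
TMM-scaled CPM of 5 interferon-gamma responsive genes and of Ctss in each mouse (log axes that differ between panels), with groups on the x axis, symbols by replicate number and bars at the group means. HHC replicate 1 is the highest point for Irf1, Irf8, Socs1, Gbp2 and Cxcl9, and the HH mice have the highest levels of Ctss (1098 and 1067 CPM).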

How the data were processed

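The authors trimmed TRAP–seq reads with Trim Galore 0.6.6, aligned them to mm10 with HISAT2 2.2.1, assigned them to genes with Subread 2.0.1 and deposited a raw read count per gene and mouse. Annotation, strand setting and handling of read pairs are not given in the sources used here. Between 74.4% and 89.2% of the counts above 0 were even, so halved counts were tried. Symbols, positions and lengths came from GENCODE, promoters from RefSeq. Low genes were removed with filterByExpr, library sizes were adjusted with TMM, and 1 quasi-likelihood model was fitted to all 8 groups (R 4.3.3 with edgeR 4.0.16, 21464 genes, biological coefficient of variation 0.680). SE is the log2 fold change over the square root of the F statistic. Calls followed the study's nominal rule, with Benjamini-Hochberg adjustment over all tested genes also given, and interactions needed an adjusted p below 0.05. Genes named were the members, H2-DMb2, called genes of the pathway and marker lists with up to 3 abundant others per list, and the 10 most alike genes. Members and lists were chosen with earlier results of these data known. The fit was tried on simulated data for the comparison of H with C only, with a fixed dispersion, and the outcome is not reported here. The long arm and the interactions were not covered by it. Alternatives were DESeq2 1.42.0, RLE scaling, raw library totals, no filter, the likelihood ratio test, fits of the compared groups alone, a replicate block, the adjusted rule, halved counts and leaving out each mouse. A crossed block and leaving out 3 libraries together were chosen after seeing the data. Some listed genes are not reported here.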

Additional observations from a re-analysis of the deposited data

How the results depend on the processing

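Few mice per group and the low reads of Ciita limit these results, and the causes of the changes given here were not tested. In H, 6 members were called, 2 by the adjusted rule, and 2 to 7 when 1 mouse was left out. In HC, where 0 were called, 5 were called with no filter, 2 with only the compared groups, 1 by the likelihood ratio test and 1 by DESeq2. In HHC, 1 was called with no filter and 1 by DESeq2, and 0 to 2 when 1 mouse was left out. In HH, 6 or 7 were called under every alternative run. In the interaction of HH and HHC, 1 member passed with no filter, 1 by the likelihood ratio test and 1 by the nominal rule. The share of all genes called was not worked out for the alternatives, so these member counts cannot be set against it. With no filter, 34443 genes were tested, and the macrophage markers called in HC also went from 6 to 8 of 11.

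Leaving out 1 mouse gave log2 fold changes in HHC of -0.58 to 1.83 for H2-Aa, -0.88 to 1.41 for H2-Ab1, -0.60 to 1.56 for H2-Eb1, -0.77 to 1.99 for H2-DMa, -0.85 to 2.70 for H2-DMb1, -6.64 to 1.82 for Ciita, -0.41 to 3.03 for Irf1 and -0.19 to 3.32 for Cxcl9, each lowest without HHC replicate 1. The H minus HC difference of Cd74 was -0.35 to 0.96. The HC minus HHC difference was -0.68 to 1.73 for H2-Aa, -0.0508 to 2.24 for H2-Ab1, -0.31 to 1.85 for H2-Eb1, -0.62 to 2.13 for H2-DMa, -1.10 to 2.45 for H2-DMb1, -0.44 to 1.16 for Cd74 and -0.57 to 7.89 for Ciita. With only the compared groups it was -0.19 for H2-Aa, -0.0765 for H2-DMa and -0.0691 for Cd74, with halved counts -0.18, -0.0693 and -0.0700, and for H2-Aa -0.0347 with RLE scaling and -0.0347 with DESeq2. RLE scaling moved the median of all genes from -0.01 to -0.16 in the HH minus HHC difference and from 0.50 to 0.38 in HC minus HHC.

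Same-numbered mice did not deviate together (correlations -0.28 to 0.19), so the numbers were not used as pairs. With the replicate block, 5 members were called in H, 0 in HC, 6 in HH and 0 in HHC. The HC minus HHC difference of H2-DMb1 was then 0.17. A crossed block gave 6 calls in HH and 0 in HHC.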
